A study of Mus musculus with 1646 samples.

Results

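The 9 genes described here encode secreted proteins that bind bone morphogenetic proteins (BMPs) or activins outside the cell: *Grem1*, *Nog*, *Chrd*, *Chrdl1*, *Fst*, *Fstl1*, *Fstl3*, *Bmper* and *Sostdc1*. They were chosen by name, and all 9 had a row among the 46517 genes of the colon count table. The 1646 single cells of the colon came from male mice of 10 to 20 weeks on a C57Bl6/J background, carrying 1 of 4 fluorescent reporters named PdgfrbGFP, Acta2GFP, PdgfraGFP and Cspg4dsRED, and were sorted as CD31-negative events, with elastase added to the digestion for Acta2GFP. Each reporter is driven by the gene in its name, so the gate decided which cells could enter, and according to the methods lines were in part combined. SmartSeq2 libraries without molecular identifiers were made of 761 PdgfrbGFP cells (4 plates), 567 Acta2GFP cells (2 plates), 91 Cspg4dsRED cells (1 plate) and, for the remainder, PdgfraGFP cells (2 plates).

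Each cell carries the number of 1 of 8 clusters in the labels. Of the 1646 cells, 1307 are fibroblasts in 5 clusters, named here from the base of the crypt to its apex: cluster 7 (base, 13.5% of all cells), cluster 5 (base to middle, 25.8%), cluster 1 (middle, 29.3%), cluster 6 (middle to apex, 2.73%) and cluster 2 (apex, 7.96%). The others are mural cells, namely the pericytes of cluster 4 (8.63%), vascular smooth muscle cells (SMC) of cluster 3 (8.57%) and interstitial SMC of cluster 8 (3.40%). No mouse is named, so a reporter line counts as 1 sample, and its spread includes strain and dissociation and may be partly technical. Cells without *Pdgfra* or *Pdgfrb* had been removed by the authors, as had cells with endothelial or immune signal.

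BMPs are growth factors that bind paired type I and type II receptors, which phosphorylate SMAD proteins and switch on target genes such as those of the Id family. Activins act in the same way through their own receptors. Antagonists bind the ligand and keep it from the receptor. In the colon, BMP activity is known to increase from the base of the crypt, where stem cells reside, towards the top, and stromal cells below and around the crypt are a known source of both ligands and antagonists. Gremlin 1 (*Grem1*), noggin (*Nog*), chordin (*Chrd*), chordin-like 1 (*Chrdl1*) and sclerostin domain-containing 1 (*Sostdc1*) bind BMPs, follistatin (*Fst*) and follistatin-like 3 (*Fstl3*) mainly bind activins, follistatin-like 1 (*Fstl1*) is a secreted glycoprotein that restrains BMP4 signalling, and *Bmper*, the homologue of fly crossveinless 2, can both restrain and promote BMP signalling.

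A level is a cell's count of a gene per 500000 counts on all genes. It was averaged over the cells that a line had in a cluster, and the mean and SD were then taken across lines holding 10 or more such cells. Depth ran from 47598 to 1494292 counts per cell with a median of 248628, and the cluster median was lowest in cluster 8 (118252) and highest in cluster 3 (359677). The summed level of 4 fibroblast markers ranged from 2733 to 7777 over the lines and fibroblast clusters and from 112.1 to 1690 in the mural clusters, and that of 5 mural markers from 1.06 to 351.1 and from 1866 to 6224. Summed markers of endothelial cells (4 genes, 3.84 to 79.99), immune cells (3 genes, 0 to 26.6), epithelial cells (3 genes, 0.185 to 32.4) and glia and neurons (4 genes, 0.0592 to 4.46) were low in every cluster, and 3 mesothelial markers were at or near 0. The 2 genes listed for interstitial cells of Cajal, *Kit* and *Ano1*, summed to 0.037 to 1.5001 over the lines of cluster 7, 98.1 to 219.6 in cluster 2 and 245.3 to 363.8 in vascular SMC. *Kit* itself had a mean over cells of 0.348 in cluster 2, so nearly all of that sum was *Ano1*. In cluster 6, 3 smooth muscle markers summed to 489 to 1436 (85.9 to 269.8 in cluster 1, 1103 to 1635 in pericytes) and 3 pericyte markers to 203.4 to 211.5 (67.98 to 119.1 in cluster 1, 4002 to 4427 in pericytes). Nearly all of the first sum was *Acta2* (803 as a mean over cells, 188.8 in cluster 1) and of the second *Kcnj8* (126.2, 30.7) and *Abcc9* (109.3, 11.4). The smooth muscle marker *Myh11* was also higher in cluster 6 than in cluster 1 (39.9, 11.6), while *Cnn1* (1.28, 1.91) and the pericyte marker *Rgs5* (3.78, 53.6) were lower. Of the 5 mural markers, *Tagln* was higher in cluster 6 (193.7, 25.3), and *Rgs5*, *Notch3*, *Des* and *Mcam* were lower.

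Promoter sequences were given by RefSeq (GRCm38.p6) for 5 of the 9 genes, and the 3 shown belong to the antagonists that passed a test below. Each run holds 300 bases, 250 before and 50 after the RefSeq start, 5′ to 3′ on the strand of the gene. Capitals mark 3 motifs: the BMP-responsive SMAD element GGCGCC, which is its own reverse complement; the SMAD box CAGACA, which reads TGTCTG on the other strand; and the TATA box TATAAA, which reads TTTATA on the other strand. Both strands were searched, and no matches overlapped.
Grem1 chr2:113758599-113758898 (-): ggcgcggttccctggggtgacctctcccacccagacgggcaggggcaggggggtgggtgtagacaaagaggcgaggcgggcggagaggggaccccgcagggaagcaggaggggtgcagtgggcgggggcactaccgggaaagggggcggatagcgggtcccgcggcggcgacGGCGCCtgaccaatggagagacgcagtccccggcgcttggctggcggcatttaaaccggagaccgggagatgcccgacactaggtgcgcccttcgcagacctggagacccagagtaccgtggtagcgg
Fstl1 chr16:37776805-37777104 (+): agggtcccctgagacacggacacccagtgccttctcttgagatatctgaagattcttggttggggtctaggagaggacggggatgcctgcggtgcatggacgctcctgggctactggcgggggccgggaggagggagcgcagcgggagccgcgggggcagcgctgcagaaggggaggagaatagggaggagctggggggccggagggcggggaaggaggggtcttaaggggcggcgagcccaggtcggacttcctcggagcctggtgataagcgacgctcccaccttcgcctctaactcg
Fstl3 chr10:79777024-79777323 (+): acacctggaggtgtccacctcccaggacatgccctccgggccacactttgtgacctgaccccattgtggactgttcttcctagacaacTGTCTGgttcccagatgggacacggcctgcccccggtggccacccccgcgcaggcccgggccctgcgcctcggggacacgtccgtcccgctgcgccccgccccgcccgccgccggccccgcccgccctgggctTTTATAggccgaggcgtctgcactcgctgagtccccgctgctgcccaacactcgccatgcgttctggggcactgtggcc
The *Grem1* promoter held 1 GGCGCC, which 11.9% of the 32851 promoters of this length hold. The *Fstl3* promoter held 1 SMAD box (21.04% of all promoters hold it) and 1 TATA box (13.6%), both on the other strand. The *Fstl1* promoter held none of the 3 motifs. All 3 windows were rich in G and C, at 70.7% in *Grem1*, 66.7% in *Fstl1* and 70.7% in *Fstl3*, against a median of 52.7% over all promoters. Matches describe the letters only.

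*Fstl1* was the most abundant of the 9 antagonists in all 8 clusters. Per kilobase of exon, the scale on which genes can be compared, its level was 326.1 counts per 500000 in cluster 7 and 44.8 in cluster 3, and it made up between 56.9% (cluster 1) and 85.1% (cluster 7) of the summed level of the 9 genes. *Grem1* came second in clusters 5 and 1, with 59.4 and 64.5 per kilobase, and *Fstl3* came second in each of the other 6 clusters. *Chrd* reached 15.4 per kilobase in cluster 6 and 12.2 in cluster 5. The other 5 genes stayed below 8 per kilobase in every cluster, the highest being *Fst* with 7.85 in cluster 2.

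**Figure D1:**
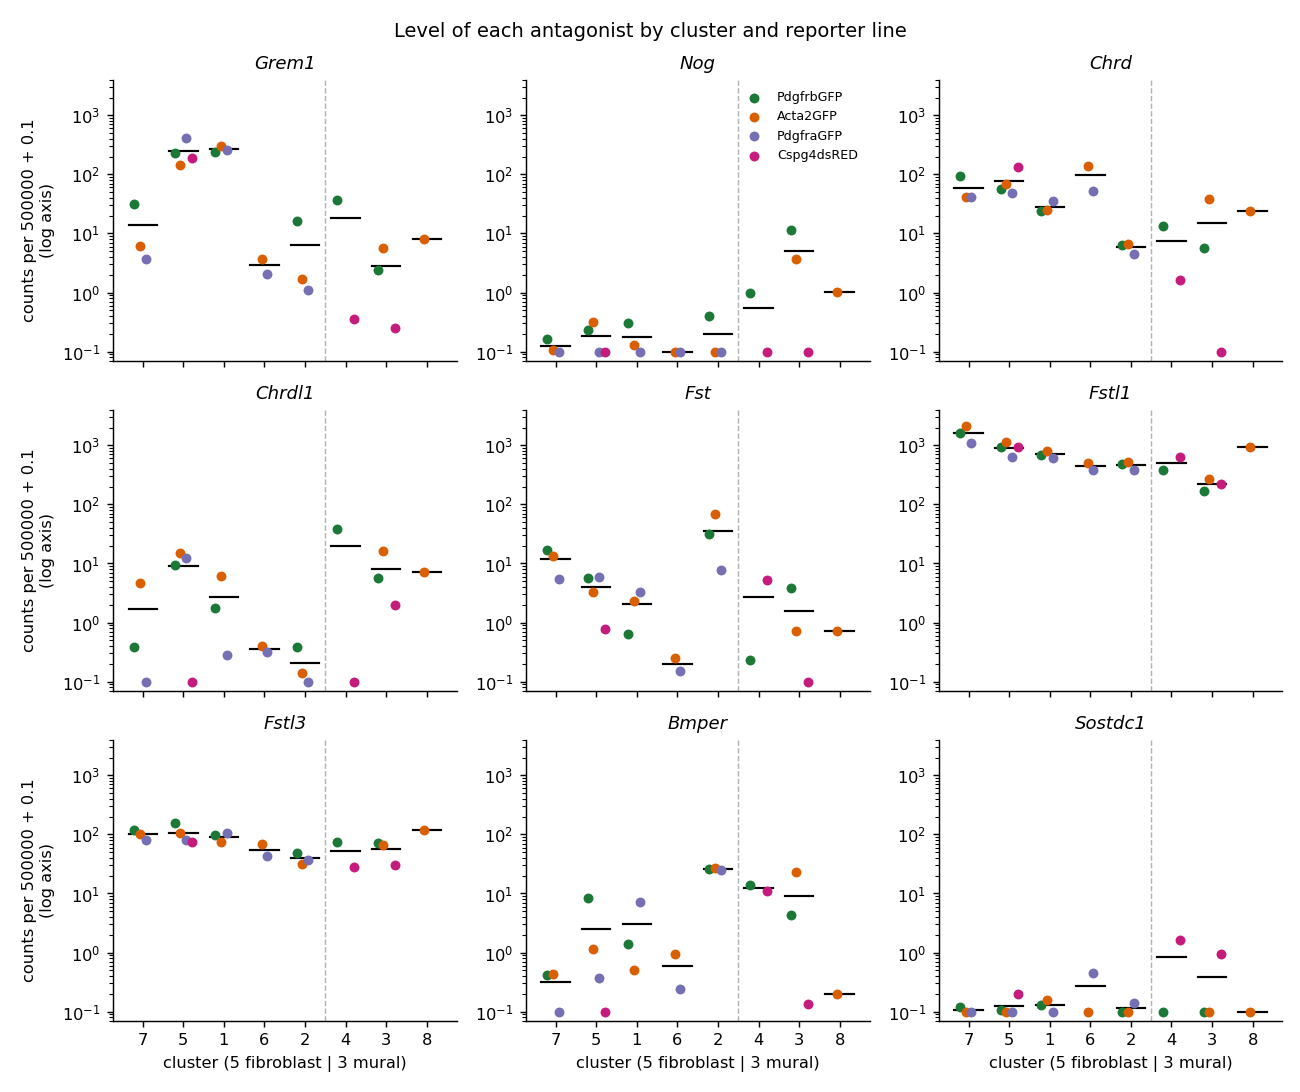
Level of each of the 9 antagonists (counts per 500000 plus 0.1, log axis) by cluster, with fibroblast clusters from base to apex left of the dashed line and mural clusters right of it. Each point is 1 reporter line with at least 10 cells of the cluster and each bar is the mean over lines. *Grem1* is high in clusters 5 and 1, *Fstl1* is high in every cluster, and *Nog* and *Sostdc1* lie near 0 in all fibroblast clusters.

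*Grem1* (ENSMUSG00000074934, chromosome 2, 113746164 to 113758646, minus strand of GRCm38) had its highest levels in the middle of the fibroblast order. In cluster 5 the lines had 228.98 (PdgfrbGFP), 146.04 (Acta2GFP), 419.8 (PdgfraGFP) and 191.3 (Cspg4dsRED) counts per 500000, and in cluster 1 they had 239.5, 307.5 and 255.1 in the same order without Cspg4dsRED. These 2 clusters overlapped, and no line of another cluster came near them. Cluster 7 had 31.5, 5.98 and 3.63 in PdgfrbGFP, Acta2GFP and PdgfraGFP, cluster 6 had 3.58 and 1.96 in Acta2GFP and PdgfraGFP, and cluster 2 had 16.2, 1.61 and 1.02 in PdgfrbGFP, Acta2GFP and PdgfraGFP. The mean ± SD over lines was 246.5 ± 120.4 (n = 4) in cluster 5, 267.4 ± 35.6 (n = 3) in cluster 1, 13.7 ± 15.5 (n = 3) in cluster 7, 2.77 ± 1.15 (n = 2) in cluster 6 and 6.28 ± 8.61 (n = 3) in cluster 2. In the order of mean levels, each of the 6 lower clusters, mural ones included, overlapped with the next.

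Over all fibroblasts, *Grem1* stood at 192.4 (PdgfrbGFP), 151.3 (Acta2GFP), 193.8 (PdgfraGFP) and 176.1 (Cspg4dsRED) counts per 500000, and over all mural cells at 20.97 (PdgfrbGFP), 7.02 (Acta2GFP) and 0.203 (Cspg4dsRED). The groups did not overlap. In sums over lines, *Grem1* was 32.6-fold higher in fibroblasts (log2 fold change 5.02, SE 0.897, adjusted p = 0.0104 in edgeR's quasi-likelihood test, higher in 3 of 3 lines with both classes). It was the only antagonist called of the 8 that could be tested, where 6.57% of all 19173 genes were called. With the line as a block the adjusted p in edgeR was 0.0731, without PdgfrbGFP 0.0735 and without Acta2GFP 0.0576, and 9 of 12 alternatives kept the call (adjusted p from 2.07e-07 to 0.0735). Among these 9 is the fit of sums from 3 or more cells, which between the classes are the main sums again.

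None of the 4 steps between neighbouring fibroblast clusters passed the test for *Grem1*, in a fit of 21739 genes. From cluster 7 to cluster 5 the log2 fold change was 4.38 (SE 1.24, adjusted p = 0.602 in edgeR), and from cluster 1 to cluster 6 it was -6.99 (SE 1.76, adjusted p = 0.0710 in edgeR), where the median of all genes was -0.47. The second difference was lower in 2 of 2 lines and was called in 6 of 12 alternatives (adjusted p from 4.13e-05 to 0.401), the first in 1 of 12, DESeq2. The part of *Acta2*, *Myh11*, *Tagln*, *Kcnj8* and *Abcc9*, which were higher in cluster 6, was not tested. Clusters 1 and 5 had a log2 fold change of -0.14 (SE 1.03), whose sign changed under 3 of 12 alternatives.

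*Grem1* was unevenly spread among the cells of the clusters that had it. In cluster 5, 29.2% of the cells had at least 100 counts per 500000 while 44.2% had fewer than 10, and the median was 14.1 beside a 90th percentile of 798. In cluster 1, 47.4% had at least 100 and 31.9% fewer than 10, with a median of 64.1. The share with at least 100 ranged from 20.3% (Acta2GFP) to 39.1% (PdgfraGFP) over the lines of cluster 5 and from 41.5% (PdgfraGFP) to 51.1% (Acta2GFP) over those of cluster 1, so each line held cells with high and with low *Grem1*. No cell of cluster 6 (0 of 45, which allows up to 6.67%), cluster 2 (up to 2.29%) or cluster 3 (up to 2.13%) reached 100, and 2.24% of the cells of cluster 7 did. Among pericytes 8 cells (5.63%) reached 100, and 5 cells held 80.1% of all *Grem1* counts of the cluster.

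**Figure D2:**
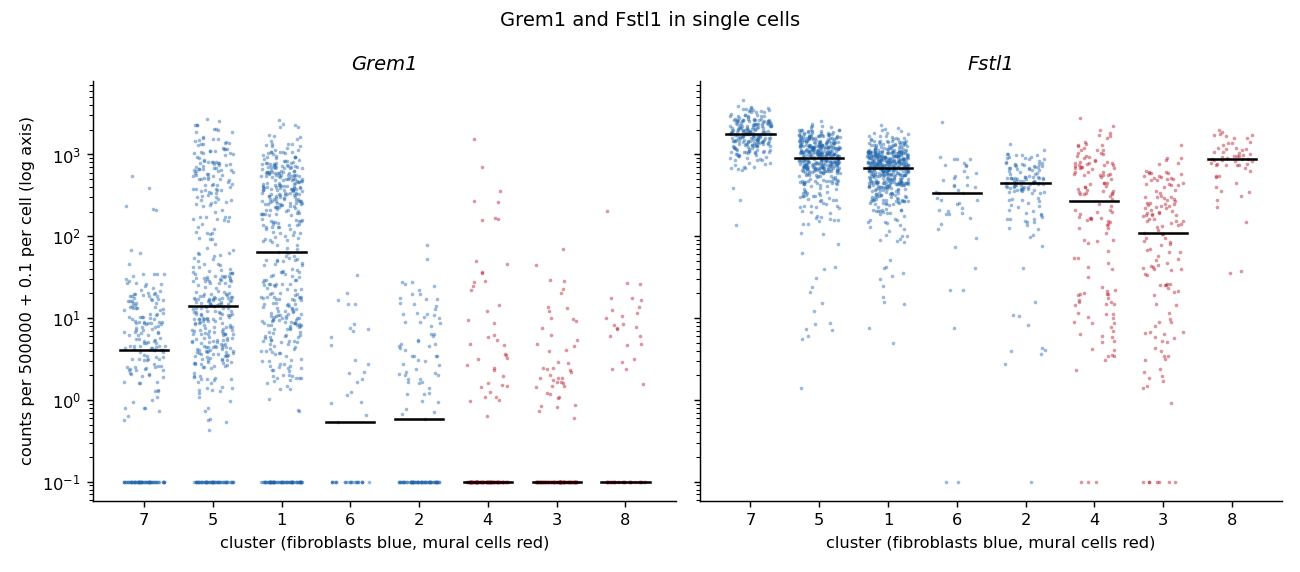
Counts per 500000 plus 0.1 (log axis) of *Grem1* and *Fstl1* in each of the 1646 cells by cluster, with fibroblasts in blue and mural cells in red and a bar at the median. *Grem1* spreads over the whole range in clusters 5 and 1 (medians 14.1 and 64.1), with 29.2% and 47.4% of cells at or above 100 and 44.2% and 31.9% under 10, while *Fstl1* is at or above 100 in 96.2% and 96.7% of the same cells and in 51.8% of cluster 3.

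Low counts of *Grem1* were common where the level was near 0. At least 1 count was seen in 72.2% of cluster 7, 50.4% of cluster 2 and 32.6% of vascular SMC (median depths 311916, 261785 and 359677), and after thinning each cell to 50000 counts these shares were 42.7%, 22.1% and 12.1%. At 30 counts or more they were 4.93%, 2.29% and 1.42%, against 30.8% in cluster 5 and 47.8% in cluster 1. In cluster 7 the share with a count was 10.5% on 1 Acta2GFP plate and 80.9% on the other. Within plates, the low *Grem1* counts of mural cells went with the *Grem1* counts of wells sharing their row or column (mean Spearman's rho 0.516, from 0.306 to 0.813 over 6 plates, a description across cells that share a plate), while for *Fstl1* in SMC the same rho was 0.0056 (5 plates). Other antagonists had such values where they were low, with means of 0.434 for *Chrd* in cluster 2, 0.354 for *Chrdl1* in clusters 2, 6 and 7, 0.328 for *Bmper* in clusters 7 and 5, 0.226 for *Fst* in clusters 1 and 6 and 0.127 for *Nog* in fibroblasts. In clusters 7 and 6 the mean for *Grem1* was 0.500 (7 plates). Single plates went down to -0.0175 for *Grem1* in those clusters, -0.0503 for *Bmper*, -0.151 for *Fst* and -0.0877 for *Nog*. The part of neighbouring wells in the low levels was not tested.

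*Fstl1* (ENSMUSG00000022816, chromosome 16, 37776873 to 37836514, plus strand) stood highest at the crypt base. Cluster 7 had 1607 counts per 500000 in PdgfrbGFP, 2104 in Acta2GFP and 1096 in PdgfraGFP, and cluster 2 had 483.3, 520 and 384.9 in the same lines. The groups did not overlap, and within each line the base stood above the apex. Over the order of clusters 7, 5, 1, 6 and 2 the means were 1602 ± 504 (n = 3), 911 ± 195.5 (n = 4), 699 ± 91.04 (n = 3), 448.1 ± 87.04 (n = 2) and 462.8 ± 69.9 (n = 3). Clusters 6 and 2 overlapped, as did clusters 5 and 1. Cluster 7 overlapped with cluster 5 in its PdgfraGFP line alone, which lay just below the highest line of cluster 5 (1117). From base to apex *Fstl1* fell by 1.501 on the log2 scale (SE 0.264, adjusted p = 0.00205 in edgeR, lower in 3 of 3 lines), and the call held in 12 of 12 alternatives (adjusted p from 1.53e-05 to 0.0464). None of the 4 steps between neighbouring clusters passed the test for *Fstl1*.

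*Fstl1* also differed among mural cells. Interstitial SMC of Acta2GFP, the only line with at least 10 such cells, had 954 counts per 500000, pericytes had 382.3 (PdgfrbGFP) and 629 (Cspg4dsRED), and vascular SMC had 167.4 (PdgfrbGFP), 267.8 (Acta2GFP) and 225.6 (Cspg4dsRED). Vascular SMC thus lay below every line of the other 2 mural clusters. *Fstl1* was higher in pericytes than in vascular SMC (log2 fold change 1.37, SE 0.286, adjusted p = 0.0247 in edgeR, higher in 2 of 2 lines). That call was lost without PdgfrbGFP (adjusted p = 0.165 in edgeR), without Cspg4dsRED (0.302) and with means per cell in limma (0.697), and held in 9 of 12 alternatives. It was higher in interstitial SMC too (log2 fold change 2.30, SE 0.335, adjusted p = 0.000769 in edgeR), in a comparison where the single sum of interstitial SMC is assumed to vary like the other groups, and this call held in 11 of 11 alternatives (adjusted p from 5.69e-06 to 0.0254). With sums of 3 or more cells a second line entered, PdgfrbGFP with 4 cells and 594.8 counts per 500000. Other genes moved with these comparisons. The 4 fibroblast markers summed to 733 to 1690 over the lines of pericytes, 1051 in interstitial SMC and 112.1 to 655 in vascular SMC, and the 9 dissociation genes to 1512 to 1519, 6732 and 5084 to 7589. Their part in the *Fstl1* differences was not tested. *Fstl1* was the only one of the 9 antagonists called by edgeR in each of these comparisons, against 0.819% and 1.01% of all 21739 genes.

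Between all fibroblasts and all mural cells, *Fstl1* had 953 ± 287.8 (n = 4) and 476.9 ± 205.7 (n = 3) counts per 500000. The lines overlapped (575 to 1195 and 294.1 to 699.6), and the log2 fold change of 1.26 (SE 0.364) did not pass the test (adjusted p = 0.0731 in edgeR). With the line as a block it was 1.49 and passed (adjusted p = 0.0312 in edgeR), as it did with plates in place of lines (0.0122), and over 12 alternatives the adjusted p lay between 0.0122 and 0.241.

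*Fstl3* (ENSMUSG00000020325, chromosome 10, 79777272 to 79782630, plus strand), an activin-binding protein, had 117.98, 103.4 and 81.9 counts per 500000 in cluster 7 (PdgfrbGFP, Acta2GFP, PdgfraGFP) and 49.03, 31.5 and 37.5 in cluster 2. The groups did not overlap. From base to apex *Fstl3* fell by 1.68 on the log2 scale (SE 0.440, adjusted p = 0.0353 in edgeR, lower in 3 of 3 lines). Leaving out PdgfrbGFP (adjusted p = 0.171 in edgeR), Acta2GFP (0.384) or PdgfraGFP (0.193) ended the call, which held in 7 of 12 alternatives (0.000843 to 0.384). Clusters 7, 5 and 1 overlapped at 101.1 ± 18.2 (n = 3), 103.8 ± 36.4 (n = 4) and 91.8 ± 16.7 (n = 3). *Fstl1* and *Fstl3* were the 2 of 9 antagonists called between apex and base, where 3.66% of all 21739 genes were called. The summed level of 9 dissociation genes moved with this comparison as well, from 2546 to 3345 over the lines of cluster 7 and from 8324 to 12526 over those of cluster 2, as did *Ano1* (above), and their part in the result was not tested.

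The counts of *Fstl3* are uncertain, because its last exons lie over those of *Prss57*, a serine protease gene on the opposite strand (chromosome 10, 79781474 to 79790961). The 2 genes share 1157 exon bases, of 2445 in *Fstl3* and 2843 in *Prss57*, and no source says that strand was used in counting. *Prss57* had 65135 counts beside 108074 of *Fstl3*, and 1190 of the 1192 cells with a *Prss57* count also had *Fstl3*. Over the 21 sums *Prss57* was the gene most like *Fstl3* of the 11020 compared (r = 0.979). Its apex to base difference was -1.66 on the log2 scale (SE 0.477, adjusted p = 0.0592 in edgeR, called in 4 of 12 alternatives, with 0.0175 without Cspg4dsRED), next to -1.68 of *Fstl3*. Reads of the 2 genes cannot be told apart in the shared stretch.

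**Figure D3:**
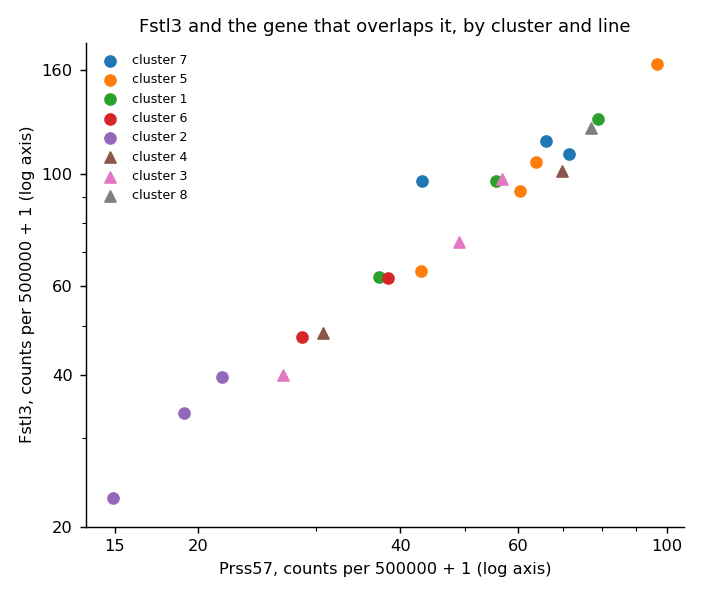
*Fstl3* against *Prss57*, in counts per 500000 plus 1 of the 21 sums of a cluster in a line (both axes log), with fibroblast clusters as circles and mural clusters as triangles. The points lie along a single line, with the 3 sums of cluster 2 at the low end and a sum of cluster 5 at the high end.

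*Chrd* (ENSMUSG00000006958, chromosome 16, 20733127 to 20742384, plus strand) was spread over clusters 7, 5, 1 and 6 and low at the apex. Cluster 7 had 92.1 (PdgfrbGFP), 41.3 (Acta2GFP) and 41.7 (PdgfraGFP) counts per 500000, and cluster 2 had 6.28, 6.49 and 4.34. These lines did not overlap, but the log2 fold change of -2.96 (SE 1.29) did not pass the test (adjusted p = 0.260 in edgeR), and it was called in 2 of 11 alternatives with an adjusted p, among them the fit without Cspg4dsRED (0.0345 in edgeR). That line had no sum in either cluster. Cluster 6 had 140.98 in Acta2GFP and 51.7 in PdgfraGFP, cluster 5 had 76.6 ± 38.2 (n = 4) and cluster 1 had 28.2 ± 6.47 (n = 3). Few cells carried the counts in several clusters, since 5 cells held 79.2% of the *Chrd* counts of cluster 6 and 87.04% of those of cluster 2. At 30 counts or more *Chrd* was found in 26.01% of cluster 7, 22.8% of cluster 5, 10.1% of cluster 1, 20.0% of cluster 6 and 3.05% of cluster 2. Its first exons overlap *Thpo* on the opposite strand (chromosome 16, 20724454 to 20734511), which had 4539 counts beside 43316 of *Chrd*, so a smaller part of its counts is uncertain in the same way.

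*Fst* (ENSMUSG00000021765, chromosome 13, 114452290 to 114458951, minus strand), the activin antagonist follistatin, had its highest means at both ends of the fibroblast order. Cluster 7 had 17.1 (PdgfrbGFP), 13.2 (Acta2GFP) and 5.44 (PdgfraGFP) counts per 500000, and cluster 2 had 31.4, 69.2 and 7.60. The plates of cluster 2 with enough cells had 0.172 and 17.97 in PdgfrbGFP, 39.5 in Acta2GFP and 0 and 13.9 in PdgfraGFP. Between the ends, cluster 5 had 3.82 ± 2.40 (n = 4), which overlapped with cluster 7, and cluster 1 had 1.98 ± 1.32 (n = 3). Cluster 6 had 0.151 and 0.0493. Cluster 2 stood above cluster 6 in 2 of 2 lines with a log2 fold change of 9.29 (SE 2.58), which did not pass the test (adjusted p = 0.0960 in edgeR) and was called in 2 of 12 alternatives (3.20e-05 to 0.592), DESeq2 and the fit without Cspg4dsRED (0.0226). In cluster 2, 5 cells held 75.3% of the *Fst* counts, and 11.5% of the cells had 30 or more. Between fibroblasts (9.59 ± 5.03, n = 4) and mural cells (1.66 ± 1.03, n = 3) the lines did not overlap, with a log2 fold change of 2.59 (SE 0.850, adjusted p = 0.109 in edgeR).

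*Bmper* (ENSMUSG00000031963, chromosome 9, 23223076 to 23485200, plus strand) was highest at the apex, with 26.04 (PdgfrbGFP), 26.9 (Acta2GFP) and 25.3 (PdgfraGFP) counts per 500000 as means over cells. In the sums that were tested the same lines had 22.3, 46.8 and 18.8, and the plates of PdgfraGFP had 8.405 and 39.3 as means over cells. Cluster 7 had 0.310, 0.333 and 0. The lines did not overlap, and the log2 fold change of 7.70 (SE 2.18) lay just outside the threshold (adjusted p = 0.0550 in edgeR, higher in 3 of 3 lines), with a call in 7 of 12 alternatives (4.40e-05 to 0.337). As with *Fst*, few cells carried it. In cluster 2, 29 cells had a count, 15 had 30 or more, and 5 cells held 63.7% of the counts. Of the 15 cells with 30 or more counts of *Fst* and the 15 of *Bmper*, 4 were the same cells (26.7% of each group, where 11.5% of all cells of the cluster had each gene at that level). Outside the fibroblasts *Bmper* reached 13.9 and 11.005 in pericytes and 4.202, 22.7 and 0.0373 in vascular SMC.

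*Chrdl1* (ENSMUSG00000031283, chromosome X, 143285674 to 143394262, minus strand) was low, with most of its counts in a few cells. Cluster 5 had 9.15 (PdgfrbGFP), 14.8 (Acta2GFP), 12.2 (PdgfraGFP) and 0 (Cspg4dsRED) counts per 500000, and pericytes had 38.7 in PdgfrbGFP and 0 in Cspg4dsRED. In the pericyte cluster 11 cells (7.75%) had 30 or more counts, and 5 cells held 77.4% of all counts. The apex had at most 0.281 in any line. No comparison called *Chrdl1*, in edgeR with all 4 lines.

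*Nog* (ENSMUSG00000048616, chromosome 11, 89300638 to 89302332, minus strand) was near the limit of detection in fibroblasts, with 36 of all 1646 cells holding a count and no fibroblast cluster above 0.101. Its counts lay in vascular SMC, with 11.5 in PdgfrbGFP, 3.59 in Acta2GFP and 0 in Cspg4dsRED, where 5 cells had 30 or more counts and held 99.9% of the total. Between fibroblasts and mural cells the log2 fold change was -6.26 (SE 1.95), which did not pass the test (adjusted p = 0.0933 in edgeR) and was called in 1 of 9 alternatives (0.00603 to 0.302), DESeq2. *Sostdc1* (ENSMUSG00000036169, chromosome 12, 36314139 to 36318452, plus strand) had 31 counts in 23 cells over the whole table, too few for a difference to be detectable at this depth, and was left out of the test between classes by the filter on low counts.

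**Figure D4:**
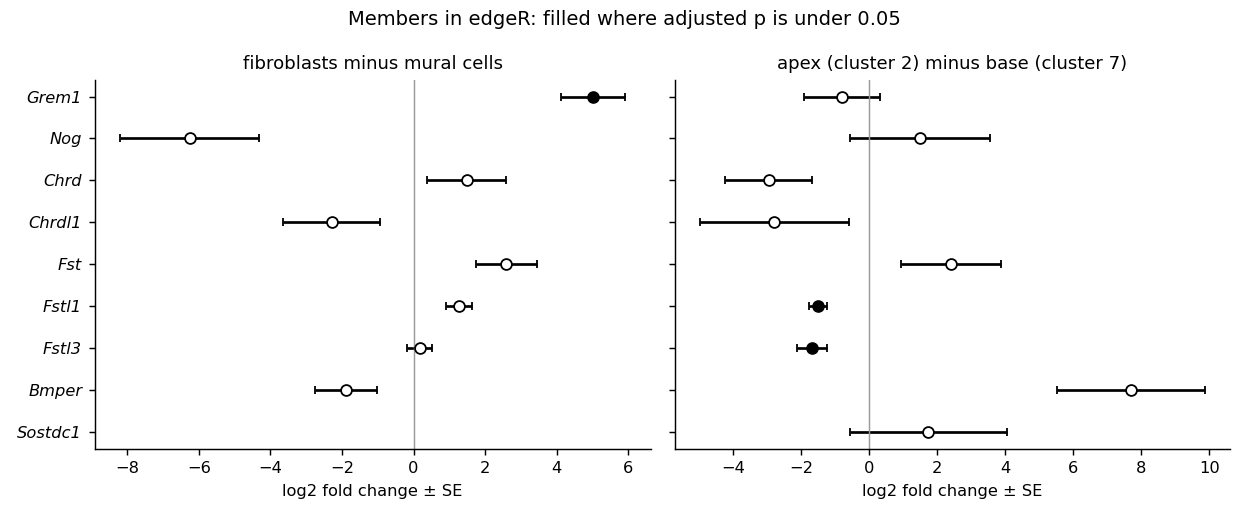
Log2 fold change of each antagonist that could be tested, with its SE, between fibroblasts and mural cells (left, positive where higher in fibroblasts, 8 genes) and between the apex and the base of the crypt (right, positive where higher in cluster 2, 9 genes). Filled points have an adjusted p under 0.05, which are *Grem1* on the left (5.02) and *Fstl1* (-1.501) and *Fstl3* (-1.68) on the right.

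The steps between neighbouring fibroblast clusters called none of the 9 antagonists in edgeR on the 21 sums, though *Grem1* was called from cluster 1 to cluster 6 in edgeR without the filter on low counts and with plates as replicates (adjusted p = 0.0216 in each). From cluster 7 to cluster 5, where edgeR called 0.0138% of all genes, 3 of the 9 had an unadjusted p under 0.05 (6.28% of all genes), DESeq2 called 1 (0.856%) and limma 0 (0.202%). From cluster 5 to cluster 1, where edgeR called 0.184%, 0 had such a p (7.74%), and DESeq2 (1.44%) and limma (0.46%) called 0. From cluster 1 to cluster 6, where edgeR called 0.791%, 1 had such a p (13.3%), and DESeq2 (7.77%) and limma (1.8%) each called 1. From cluster 6 to cluster 2, where edgeR called 0.957%, 3 had such a p (14.5%), DESeq2 called 2 (8.95%) and limma 1 (3.39%). Over these 4 steps the median log2 fold change of the 9 genes was 1.23, -0.69, -1.90 and 0.16, where that of all genes was 0.08, 0.02, -0.47 and 0.18. Between apex and base it was -0.81, where that of all genes was 0.

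The antagonists were also counted within cells. Leaving out *Fstl1*, 20.6% of cluster 7, 29.2% of cluster 5 and 21.3% of cluster 1 had 30 or more counts of at least 2 of the other 8 genes, against 4.44% of cluster 6, 3.82% of cluster 2 and 3.55% to 7.04% of the mural clusters. *Grem1* and *Chrd* were not found together more often than apart in cluster 5, where 19.8% of the cells with 30 or more counts of *Grem1* also had *Chrd* at that level, beside 22.8% of all its cells. In cluster 1 these shares were 11.3% and 10.1%, and in cluster 7 they were 45.5%, or 5 of 11 cells, and 26.01%. The cells share lines and plates, and no test was made.

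Each antagonist with at least 10 counts per 500000 in some cluster was compared with 11020 genes over the 21 sums, and genes among the 3 with the highest Pearson's r of log2 levels are named. For *Grem1* these were *C4b* (r = 0.929), *A430027H14Rik* (0.924) and *Serpina3n* (0.908), for *Chrd* *Larp6* (0.877) and *Thbd* (0.867), and for *Fstl1* *Ahnak* (0.903), *Tusc3* (0.903) and *Dbn1* (0.874). After *Prss57*, *Fstl3* was closest to *Mfap5* (0.879) and *Fmo2* (0.874). For *Bmper* they were *Insc* (0.799), *Dcbld1* (0.786) and *Rab37* (0.781), for *Fst* *Edn1* (0.780) and *Spsb4* (0.742), and for *Chrdl1* *Sipa1l1* (0.767), *Trim68* (0.733) and *Gm42957* (0.726). The sums share lines and the clusters were drawn from the same counts. Among the antagonists, *Chrd* and *Fstl3* had the highest r (0.708) and *Fstl1* and *Bmper* the lowest (-0.42).

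Several of the ligands that the antagonists bind were higher at the apex. The authors had already reported *Bmp2*, *Bmp5* and *Bmp7* in the apex fibroblasts of these data, and *Bmp2* was also listed here as an apex marker. Between apex and base, 4 of the 9 BMP ligands that could be tested (of 13 listed) were higher and none lower in edgeR, which called 3.66% of all genes. *Bmp2* had 7.33 ± 2.19 counts per 500000 at the base and 456.8 ± 80.6 at the apex (log2 fold change 5.65, adjusted p = 0.000472 in edgeR). *Bmp5* had 4.16 ± 3.68 and 683 ± 104.7 (7.35, adjusted p = 6.73e-05), *Bmp7* 3.41 ± 2.72 and 398.1 ± 205.6 (7.11, adjusted p = 0.000558) and *Bmp4* 141.004 ± 21.5 and 784 ± 119.4 (2.41, adjusted p = 0.0227), all with n = 3 and all by edgeR. *Bmp5* kept its call in 12 of 12 alternatives, while *Bmp2* (adjusted p = 0.0521 in edgeR) and *Bmp7* (0.0614) lost it without Acta2GFP. *Bmp4* lost it without PdgfrbGFP (adjusted p = 0.0852 in edgeR), without PdgfraGFP (0.222) and in cells of 100000 or more counts (0.126). *Bmp5* and *Bmp7* were also higher in cluster 1 than in cluster 5 (log2 fold changes 4.73 and 4.68, adjusted p = 0.00354 and 0.0258 in edgeR), the 2 clusters that hold most *Grem1*. Both calls were lost without Acta2GFP (adjusted p = 0.242 and 0.571 in edgeR), and that of *Bmp7* also without Cspg4dsRED (0.0588) and in limma (0.941). *Bmp3* was called in cluster 6 against cluster 1, with 399.8 ± 127.3 and 1.85 ± 1.36 (log2 fold change 7.33, adjusted p = 0.0243 in edgeR), which was lost without PdgfrbGFP (0.0810), Acta2GFP (0.304) or PdgfraGFP (0.0506). *Bmp4* was called in interstitial against vascular SMC (5.61, adjusted p = 0.000330 in edgeR), again with a single sum of interstitial SMC. Fibroblasts stood above mural cells in *Bmp7* (6.27, adjusted p = 0.000463 in edgeR), *Bmp3* (5.34, adjusted p = 0.00821) and *Bmp6* (2.06, adjusted p = 0.0169). With the line as a block *Bmp6* lost its call (adjusted p = 0.0986 in edgeR), as it did without PdgfrbGFP (0.0705), Acta2GFP (0.142) or Cspg4dsRED (0.0582). *Bmp3* lost it without PdgfrbGFP (adjusted p = 0.0719 in edgeR) and in limma (0.176), and *Bmp7* kept it in 12 of 12 alternatives, of which the sums from 3 or more cells repeat the main fit.

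Of the 5 activin type ligands, *Inhbb*, an activin subunit, was called between apex and base (adjusted p = 0.0267 in edgeR), but 5 apex cells and no base cell (which allows up to 1.35%) had a count, at 1.98 ± 1.83 counts per 500000, so no fold is given, and the call was lost in limma (adjusted p = 0.781) and without PdgfrbGFP (0.166 in edgeR), Acta2GFP (0.326) or PdgfraGFP (0.0865). *Inhba*, the other subunit, had 36.98 ± 12.3 at the apex, 8.72 ± 7.67 at the base and 60.4 in vascular SMC, where the 3 lines ran from 17.4 to 108.9.

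**Figure D5:**
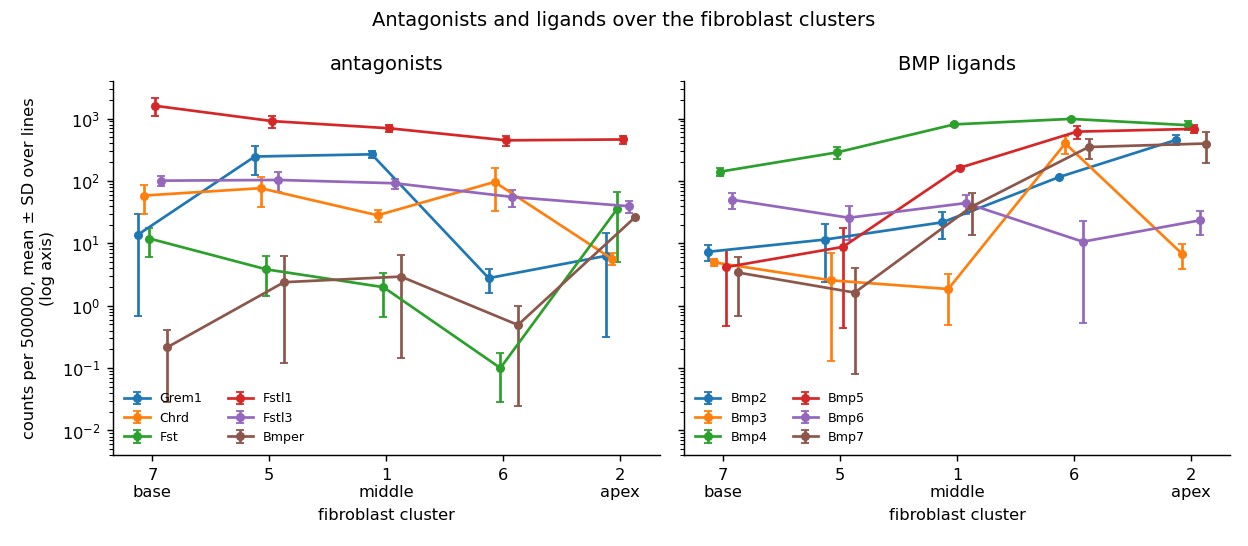
Levels of 6 antagonists (left) and 6 BMP ligands (right) in the fibroblast clusters from base to apex, as mean and SD over lines in counts per 500000 on a log axis, with the lower bar shortened where the SD exceeds the mean. *Fstl1* declines from 1602 to 462.8 while *Bmp2* goes from 7.33 to 456.8 and *Bmp5* from 4.16 to 683, and *Grem1* is high only in clusters 5 and 1.

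Among the other pathway genes, 4 of 7 BMP target genes tested between apex and base were higher and none lower in edgeR. *Id1* had 1.34 ± 0.658 at the base and 170.97 ± 46.1 at the apex (log2 fold change 7.29, adjusted p = 4.36e-05 in edgeR), and *Id2*, *Id3* and *Atoh8* were the others. The call of *Id1* held in 12 of 12 alternatives. None of 8 SMAD genes was called there in edgeR, with 4 at an unadjusted p under 0.05 (15.5% of all genes), 1 call in DESeq2 (8.63%) and 2 in limma (6.45%). Of 15 receptors and co-receptors, 2 were lower at the apex, *Tgfbr3* (log2 fold change -3.78) and *Rgma* (-5.12), a BMP co-receptor, and none higher. Of 15 other extracellular modulators tested, *Twsg1*, which forms complexes with chordin and BMPs (3.37), and *Htra1* (2.29) were higher and *Bmp1*, the protease that cleaves chordin (-1.27), was lower at the apex. *Twsg1* kept its call in 12 of 12 alternatives, *Htra1* and *Tgfbr3* in 11, *Rgma* in 8 and *Bmp1* in 4. Without Acta2GFP the adjusted p in edgeR was 0.0577 for *Tgfbr3*, 0.119 for *Htra1*, 0.325 for *Rgma* and 0.357 for *Bmp1*. Without PdgfraGFP it was 0.305 for *Rgma* and 0.200 for *Bmp1*, and without PdgfrbGFP 0.342 for *Bmp1*. These genes outside the ligands were named after their values were seen. Over all 6 lists, 11 genes were higher and 3 lower of 59 tested between apex and base (3.66% of all genes called), and 7 were higher and 1 lower of 52 tested between fibroblasts and mural cells (6.57%).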

How the data were processed

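The authors demultiplexed the reads, aligned them to GRCm38 (TopHat2), summarised them per gene (featureCounts), removed shallow and contaminated cells and deposited the raw counts as whole numbers, without normalization or correction between plates. Whether strand was used in counting is not given in the sources used here. The table held 46517 genes and 92 ERCC spike-ins, which were 1.36% of all counts and were left out. Positions (1-based), exons and symbols came from GENCODE vM21 on GRCm38.

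For each line with 10 or more cells of a cluster or class, the raw counts of these cells were added up (21 and 7 sums, with 2202988 to 217742647 counts), filtered with filterByExpr, scaled by TMM and compared by edgeR's quasi-likelihood test. P-values were adjusted by Benjamini-Hochberg over all genes tested, with a threshold of 0.05. Standard errors were derived from the F statistic, as the size of the log2 fold change over the root of F. The filter lets a gene pass through the group where it is high. Since the authors' clustering used these counts, the tests are not independent of the clusters. The study's own test treats cells as replicates and was not repeated. Doublets were not called, as cells with very many genes had already been removed. Shares were recomputed after thinning to 50000 counts, which leaves out 11 cells. Without molecular identifiers, limits from counts cover counting error only.

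Named genes are the 9 antagonists, the ligands that passed a test, and the 3 genes most like each antagonist in log2(level + 1), of which some are not reported here. Other pathway, marker and overlapping genes were named after their values were seen. The members, the lists of pathway genes and markers, and the tests were chosen with earlier results of these data known. Alternatives were a block for the line, DESeq2, limma on the mean log2(level + 1) of cells, plates as replicates, no filter, sums from 3 or more cells, cells of 100000 or more counts, plate 075s left out, and each line left out. Between fibroblasts and mural cells, the sums from 3 or more cells were the main sums, so this alternative could not differ there. Sums of a line may share mice. Deviations of fibroblast and mural sums from their class means correlated within lines (r = 0.152 to 0.175 over genes, 3 of 3 lines above 0.1), and the pairing comes from the reporter line in the labels. The main tests left this pairing out, and the block for the line takes it in. The fits were also run on simulated data, with large changes in well expressed genes and no correlation within lines. That setting does not cover sparse genes such as *Nog* and *Sostdc1* or small changes, and no result is drawn from it. Tables were made in Python 3.11.15 (pandas 2.3.3, scipy 1.17.1, numpy 2.4.6) and models in R 4.3.3 (DESeq2 1.42.0, limma 3.58.1, edgeR 4.0.16).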

Additional observations from a re-analysis of the deposited data

Results flagged for a closer look

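Among 18 groups of 4 lines in which the level of an antagonist could be checked for a line far from the others, 2 stood out, where chance alone flags about 1 in 20. *Bmper* in cluster 5 had 8.23 counts per 500000 in PdgfrbGFP, while the next line had 1.03. *Sostdc1* in cluster 5 had 0.0991 in Cspg4dsRED, from 2 cells of the cluster with a count in all lines.

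The difference of *Chrd* between clusters 5 and 7 took opposite directions in the plates of 2 lines. On both Acta2GFP plates with enough cells *Chrd* was higher in cluster 5 (84.9 against 54.9, and 61.4 against 35.5 counts per 500000), and on both PdgfrbGFP plates it was lower (34.7 against 97.3, and 73.7 against 110), so that the mean differences of the lines were 77.6 apart. This difference was not tested, and it was 1 of 18 comparisons of this kind.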

How the results depend on the processing

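The number of antagonists called moved with the setting. Between fibroblasts and mural cells it was 1 in edgeR (6.57% of all genes), 3 in DESeq2 (15.4%), 2 in limma (6.62%) and 2 with plates as replicates (16.1%), and 0 to 2 with a line left out (1.81% to 5.81%). Between apex and base it was 2 in edgeR (3.66%), 3 in DESeq2 (8.63%), 2 in limma (6.45%), which called *Bmper* in place of *Fstl3*, and 4 with plates as replicates (7.45%), and 1 to 4 with a line left out (0.7% to 4.93%, with 4 and 4.93% without Cspg4dsRED and 0.7% without Acta2GFP). It went from 0 to 1 in DESeq2 for cluster 5 against 7, and from 0 to 1 without the filter (0.624%), in DESeq2 (7.77%), in limma (1.8%) and with plates (3.84%) for cluster 6 against 1 (0 to 1 with a line left out, 0.052% to 2.08%). For cluster 2 against 6 it went from 0 to 2 in DESeq2 and 1 in limma (0 to 2 with a line left out, 0.0236% to 2.21%), for pericytes from 1 to 0 in limma (0 to 1 with a line left out, 0.226% to 0.974%), and for interstitial SMC from 1 to 2 in DESeq2 (5.12% of all genes, against 1.01% in edgeR). *Fstl1* between apex and base and in interstitial SMC kept its call under every alternative fitted. The comparison of interstitial SMC could not be made without Acta2GFP. Cspg4dsRED had no sum in the base and apex clusters, and PdgfraGFP had none in the mural clusters. Where such a line is left out, the shared fit changes but the sums compared do not. The causes were not tested, beyond the fewer sums that a left-out line leaves.

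With the line as a replicate block, the count stayed at 1 between fibroblasts and mural cells (3.08% of all genes), where *Fstl1* was called in place of *Grem1*, and went from 2 to 3 between apex and base, where *Bmper* was added (adjusted p = 0.0408 in edgeR, with 4.57% of all genes). It changed no other count of antagonists, and among the ligands named it ended the call of *Bmp6* between fibroblasts and mural cells. Over the cluster sums 19 of 43 pairs of the same line correlated above 0.1, and over the class sums 3 of 3 did. The main tests took the lines as pairs in neither, and only the block uses the pairing. Among the fold changes recomputed, that of *Grem1* between clusters 1 and 5 reversed, to 1.26 in limma, 0.17 in cells of 100000 or more counts and 0.14 without Cspg4dsRED (-0.44 to 0.14 with a line left out), none of them called. The levels and shares recomputed were those of the 9 antagonists and of the 13 BMP and 5 activin type ligands listed. Of the levels, 549 of 648 values under other averages stayed within 1 SD. Of the shares of cells with a count, 27.2% of the 648 values after thinning or at 30 or 100 counts stayed within the 95% interval of the share, and the others moved. *Nog* and *Sostdc1* had the fewest cells with a count of the 9 genes, 36 and 23.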

Other observations

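Another chordin family antagonist outside the 9 genes, *Chrdl2*, was found in interstitial SMC. Its level was 56.4 counts per 500000 in the Acta2GFP interstitial SMC, 0 in all lines of vascular SMC and pericytes, and at most 0.0865 in any line of a fibroblast cluster. The gene was chosen after its values were seen.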
